A study of Mus musculus with 2 samples.

Results

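Small nucleolar RNA (snoRNA) and small Cajal body RNA (scaRNA) genes were examined in RNA sequencing of whole mouse testes at postnatal day 9. A gene was taken as a member if its Ensembl identifier had the biotype snoRNA or scaRNA in the GENCODE M21 annotation and its mean RPKM over both libraries was at least 1. RPKM is the number of reads per kilobase of gene, scaled to the library's counted reads. The members were thus chosen by their level, and the ratio between the libraries was not used. The files listed 1525 such entries, of which 183 were members (12.0%), 170 of them snoRNA and 13 scaRNA entries. A further 154 entries had 1 to 7 reads and stayed below the limit, and 1188 were at 0 in both libraries. The levels given here are therefore a description.

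The Control library came from testes of 9-day-old control mice and the other from Bcas2F/-;Vasa-Cre mice of the same age, and the labels give C57BL/6 as the strain of both, while the study's methods describe the line as of mixed 129/C57BL/6 background. Bcas2F/-;Vasa-Cre mice carry 1 floxed and 1 deleted allele of Bcas2, which encodes a spliceosome component, and the Vasa promoter drives Cre in germ cells. By the study's methods the controls were Bcas2F/- males, which carry the same floxed and deleted alleles without Cre, so both groups lack 1 allele in all cells. The somatic cells of Bcas2F/-;Vasa-Cre testes thus keep the floxed allele. Each genotype had 1 library, the number of mice in it is not given, and no difference between genotypes has a replicate check or a test. In whole testes, fewer cells of a type and less RNA per cell cannot be told apart.

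Bcas2 itself was at 39.5 RPKM in Control and 25.7 RPKM in Bcas2F/-;Vasa-Cre, a log2 ratio of -0.60. The library sizes recovered from the RPKM steps were 19918750 and 19331687 counted reads. All 4 germ cell markers (Ddx4, Dazl, Zbtb16 and Kit) were lower in Bcas2F/-;Vasa-Cre, with log2 ratios from -0.40 to -0.25. All 3 Sertoli cell markers (0.11 to 0.36) and all 3 Leydig cell markers (0.36 to 0.68) were higher, and the neutrophil markers S100a8 and S100a9 were lower, at -2.64 and -2.95. Markers of peritubular myoid cells (Acta2 -0.13, Myh11 0.02) and of red cells (Hba-a1 -0.26, Hbb-bs 0.11) went both ways. The part of these shifts in the results on snoRNAs was not tested.

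snoRNAs guide chemical changes to other RNAs. Box C/D snoRNAs pair with ribosomal RNA and direct the methylation of a ribose, and H/ACA snoRNAs direct the change of uridine to pseudouridine, whereas scaRNAs do the same for the small nuclear RNAs of the spliceosome in Cajal bodies. Most mammalian snoRNAs lie in introns of other genes and are trimmed out of the excised intron, which ties their making to splicing. The mature RNAs have no poly(A) tail and are often shorter than the fragments a messenger RNA library retains.

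The sequences of 8 members are shown, the 4 with the most reads among those printed and 4 more whose counting interval, explained with the ratios, left out 0. They are the GENCODE M21 transcripts on the GRCm38 (mm10) build, written 5′ to 3′ as DNA. Capitals mark the C box TGATGA in the first 20 bases and the D box CTGA in the last 15 in members that hold both. In the others they mark an H box ANANNA between bases 41 and 100, the match nearest the middle, and the ACA that ends 3 bases before the 3′ end. Gm22009 is 343 bases long, and its first and last 60 bases are given.
Gm22009, first bases: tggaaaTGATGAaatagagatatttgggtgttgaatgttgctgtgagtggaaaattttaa
Gm22009, last bases: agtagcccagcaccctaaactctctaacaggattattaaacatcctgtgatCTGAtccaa
Snord104: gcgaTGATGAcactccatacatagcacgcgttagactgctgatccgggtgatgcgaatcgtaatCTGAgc
Gm24455: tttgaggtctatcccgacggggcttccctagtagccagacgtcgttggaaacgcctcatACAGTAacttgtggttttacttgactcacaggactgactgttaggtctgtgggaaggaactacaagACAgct
Gm23455: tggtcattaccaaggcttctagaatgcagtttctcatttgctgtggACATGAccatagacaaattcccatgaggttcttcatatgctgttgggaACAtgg
Gm24299: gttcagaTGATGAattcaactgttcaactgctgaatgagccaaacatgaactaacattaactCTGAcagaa
Gm22270: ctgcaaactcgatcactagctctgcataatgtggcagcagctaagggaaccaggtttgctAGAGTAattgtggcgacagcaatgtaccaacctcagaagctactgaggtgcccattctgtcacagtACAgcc
Gm26205: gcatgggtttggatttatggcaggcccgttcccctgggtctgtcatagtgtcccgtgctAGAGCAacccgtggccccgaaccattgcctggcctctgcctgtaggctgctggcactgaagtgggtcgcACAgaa
Snord49a: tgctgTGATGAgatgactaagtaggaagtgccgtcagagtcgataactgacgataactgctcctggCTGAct

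Gm22009 lies at chr3:69085105-69085447 on the minus strand, in an intron of Kpna4, and Snord104 at chr11:106500993-106501062 on the plus strand, outside annotated genes. Gm24455 (chr9:15313802-15313932), Gm24299 (chr9:15314074-15314144) and Gm23455 (chr9:15316489-15316588) lie on the plus strand over exons of Taf1d transcripts. Gm22270 (chr5:107905177-107905308) and Snord49a (chr11:62603450-62603521) lie on the plus strand in introns of Rpl5 and of the non-coding gene 2410006H16Rik, and Gm26205 (chr5:121205010-121205143) lies on the plus strand over an exon of Rpl6. Kpna4 encodes a nuclear import receptor, Taf1d a component of the RNA polymerase I machinery, and Rpl5 and Rpl6 proteins of the large ribosomal subunit.

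The boxes sorted some of the members into types that most of their symbols do not give. By symbol, 41 members were box C/D (Snord or Rnu3), 18 were H/ACA (Snora) and 13 had the scaRNA biotype, and the other 111 were left without a class, nearly all of them with predicted-gene names, among them Scarna9 and Rnu73b, whose symbols the rule did not cover. Both a C and a D box were found in 44 members and an ACA 3 bases from the 3′ end in 69 of the others, which left 70 with neither pattern. The ACA at that place was in 15 of the 18 Snora members and in 0 of the 41 Snord and Rnu3 members. Of these 41, the exact C box was found in only 22 and the D box in 37. The 70 with neither pattern therefore include box C/D members by symbol, such as Snord72 and Rnu3a. Of all 1525 annotated entries, 21.6% held the C box, 31.0% the D box, 82.2% the H box pattern, which is short and loose, and 18.6% the ACA at that place. A match is a description of the letters and not of a functional box.

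Few reads stood behind these levels. A single read added 0.772 RPKM to the shortest member (65 bases) in Control and 0.121 RPKM to the longest (414 bases). The members had 3 to 233 reads in both libraries together, with a median of 15, and 57 of them (31.1%) had fewer than 10. Only 9 had at least 100 reads, and the 10 with the most held 30.6% of all member reads. The 57 members with fewer than 10 reads had means of up to 2.69 RPKM, and the 73 members under 100 bases had a median of 5.41 RPKM from a median of 16 reads. Together the members took 2528 reads in Control and 2709 in Bcas2F/-;Vasa-Cre, which is 0.0127% and 0.0140% of the counted reads. Whole reads were recovered within 0.02 of a read for 182 of the 183 members. The exception was Snora43, whose 20 and 22 reads are rounded.

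**Figure D1:**
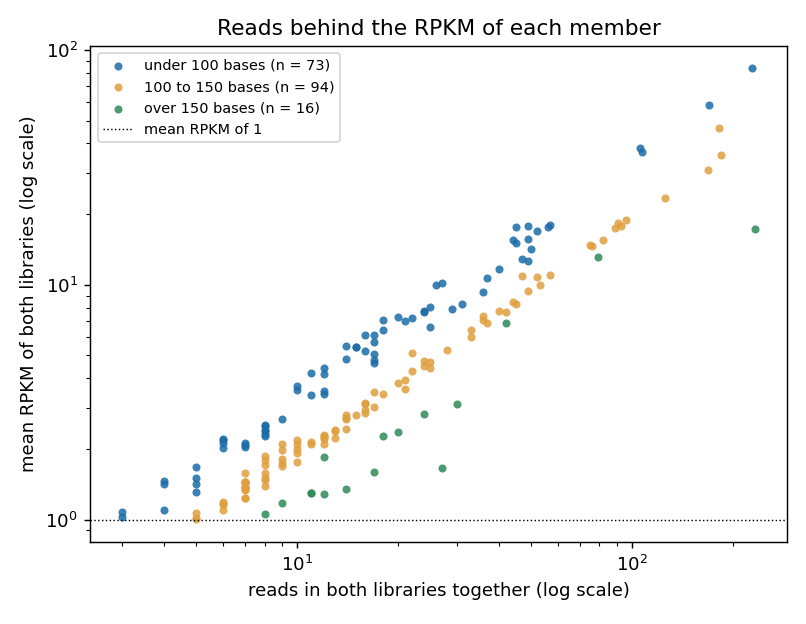
Mean RPKM of both libraries against the reads in both libraries together, both on log scales, with 1 point for each of the 183 members coloured by length and a dotted line at a mean RPKM of 1. At the same number of reads the members under 100 bases sit highest, and the points run from 3 to 233 reads.

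The members next to the limit rested on 3 to 5 reads. Just inside were Gm25973 at a mean of 1.01 RPKM (2 reads in Control and 3 in Bcas2F/-;Vasa-Cre), Gm22300 at 1.01 (2 and 3 reads) and Snord59a at 1.03 (2 and 1 reads). Just outside were Snora69 at 0.981 (1 and 4 reads), Gm25862 at 0.979 (4 and 1 reads) and Gm24916 at 0.973 (1 and 2 reads). In 33 members 1 of the libraries was below 1 RPKM, 20 times Control and 13 times Bcas2F/-;Vasa-Cre. These entered through the library in which they were higher.

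Place in the genome went with the share of entries that became members. Small RNA genes were left out in placing the entries, so an entry counted as outside annotated genes may still overlap such a gene. Of 516 entries in an intron of a gene on the same strand 22.5% were members, of 160 over an exon on the same strand 26.3%, of 222 opposite to a gene 8.11% and of 627 outside annotated genes 1.12%. Among the last group 96.0% were at 0 in both libraries. The members with a same-strand gene around them numbered 158, in 117 host genes, and 26 hosts held more than 1 member. Protein-coding hosts held 143 of them. A near-identical transcript elsewhere (at least 95% identity over at least 90% of the length) was annotated for 354 entries, of which 31 were members, and reads of such entries may be shared with the copies. Exons of another gene on either strand overlapped 57 members, and how the counting treated reads there is not given.

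Members with both boxes sat nearer to the end of their intron than the others. The distance from the 3′ end of the member to the next annotated exon of the host had a median of 115 bases for the 29 intron-hosted members with C and D boxes (quartiles 82 and 951), and 17 of them (58.6%) lay 50 to 150 bases away. For the 43 with the ACA the median was 815 bases (quartiles 258 and 2143), and 4 (9.30%) lay in that window. The 44 with neither pattern had a median of 741 bases, and box C/D members by symbol are among them. Box C/D snoRNAs are known to lie at a short, set distance before the branch point, and H/ACA snoRNAs are not.

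**Figure D2:**
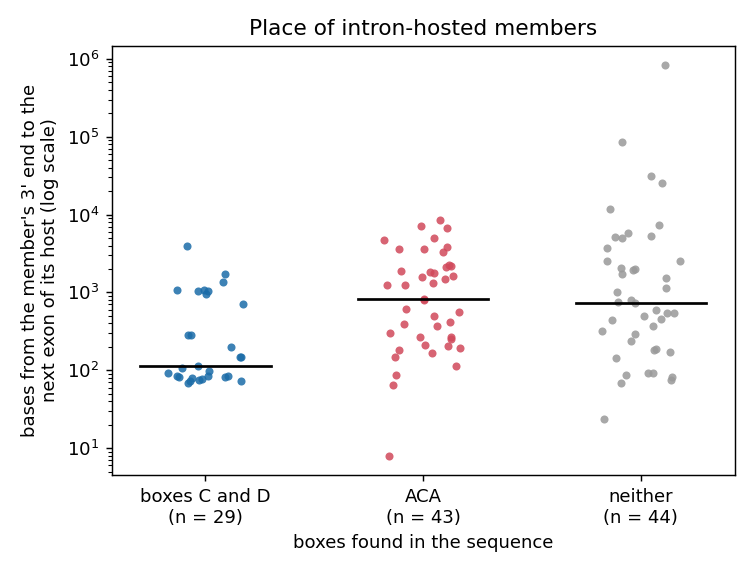
Bases from the 3′ end of each intron-hosted member to the next exon of its host, on a log scale, for members with C and D boxes, with the ACA or with neither, with a line at the median. The medians are 115, 815 and 741 bases, and most members with C and D boxes lie close together under 150 bases.

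The highest level belonged to Snord104, a box C/D snoRNA, with 64.5 RPKM in Control (90 reads) and 102 RPKM in Bcas2F/-;Vasa-Cre (138 reads). Next came Gm24357, with 60.4 and 56.6 RPKM (89 and 81 reads), and Gm23455, with 44.7 and 48.1 RPKM (89 and 93 reads). Both lie within Taf1d. By reads, the scaRNA Gm22009 came first, with 143 reads in Control and 90 in Bcas2F/-;Vasa-Cre. Over its 343 bases these reads gave only 20.9 and 13.6 RPKM. Gm23119, another scaRNA, had 92 and 77 reads (33.0 and 28.5 RPKM), Gm23130 in Rps12 had 61 and 46 (41.4 and 32.2 RPKM) and Gm24888 in Rpl27a had 44 and 52 (17.0 and 20.7 RPKM). The 10 members with the most reads thus had them in both libraries, and 5 of the 10 belonged to Taf1d. These are levels of reads counted at the entries, and whether the reads came from mature or longer RNAs was not tested.

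Taf1d held 8 members and 18.9% of all member reads. The host had 71.0 RPKM in Control and 73.8 in Bcas2F/-;Vasa-Cre. In order along the gene, Gm25500 had 20 and 32 reads, Gm24455 84 and 100, Gm24299 41 and 65, Gm25791 62 and 64, Gm22620 30 and 46, Gm24357 89 and 81, Gm23455 89 and 93 and Gm22579 45 and 48, each given for Control and then Bcas2F/-;Vasa-Cre. The 8 neighbours thus ranged from 20 to 89 reads in Control alone, and 7 of the 8 ratios were above 0. Their 460 reads in Control and 529 in Bcas2F/-;Vasa-Cre gave a log2 ratio of summed reads of 0.24, with a 95% Clopper-Pearson interval of 0.06 to 0.43. Intervals here cover counting error only and compare these 2 libraries, not the genotypes. All 8 lie over exons of some Taf1d transcript, and whether their reads came from the snoRNAs or from Taf1d transcripts was not tested.

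**Figure D3:**
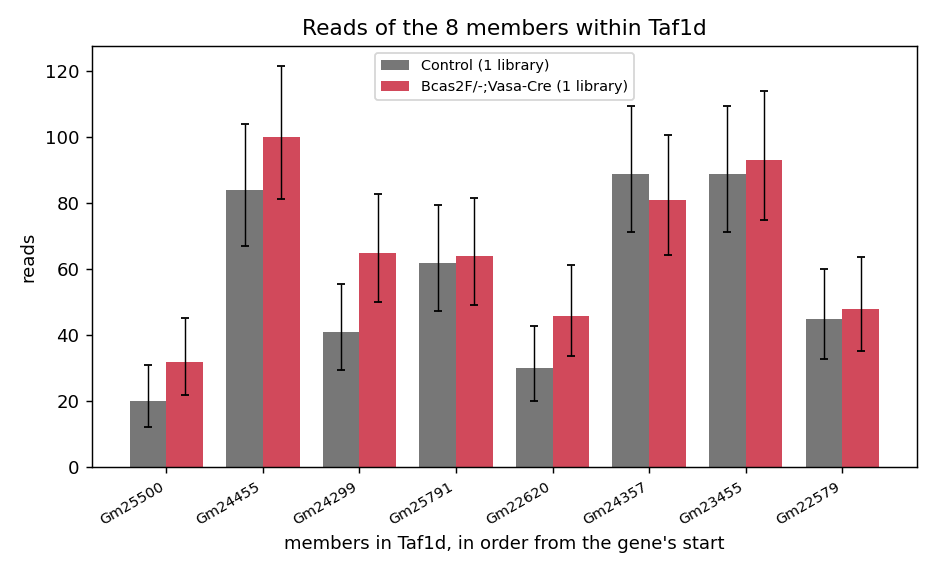
Reads of the 8 members within Taf1d in the Control library (grey) and the Bcas2F/-;Vasa-Cre library (red), 1 library each, in order along the gene, with exact 95% Poisson intervals as error bars. Gm24357 and Gm23455 have 89 reads each in Control and Gm25500 has 20, and the intervals of the libraries overlap for every member.

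The ratio between the libraries was taken as the log2 of RPKM in Bcas2F/-;Vasa-Cre plus 1 over RPKM in Control plus 1, which understates the change of low members. More members were higher (115) than lower (68) in Bcas2F/-;Vasa-Cre. The median log2 ratio was 0.13, against 0.02 over all 14831 genes that averaged 1 RPKM or more, and 62.8% of members against 53.7% of all genes were above 0. The 276 other short RNA entries past the same limit, mostly microRNA and small nuclear RNA entries, had a median of 0.19, with 64.1% above 0, and the 94 small nuclear RNA entries alone had 0.03. The summed reads of all members gave a log2 ratio of 0.14 (interval 0.06 to 0.22).

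Ratios past a set fold were common among the members. More than 1.5-fold lower were 23 members (12.6%), against 1.69% of all genes, and more than 1.5-fold higher were 43 (23.5%), against 1.57%. More than 2-fold lower were 10 members (5.46%), against 0.378% of all genes, and more than 2-fold higher were 16 (8.74%), against 0.425%. Of the 10 members more than 2-fold lower, 6 were under 1 RPKM in Bcas2F/-;Vasa-Cre. Of the 16 more than 2-fold higher, 6 were under 1 RPKM in Control. Past 1.5-fold the same held for 11 of the 23 lower and 13 of the 43 higher members. All of these passed the limit through the library in which they were high, so the counts at either fold do not support a change. The members past 2-fold had few reads, with a median of 8 for those lower and 12 for those higher, and the highest were 20 and 37 reads. The 57 members with fewer than 10 reads ranged from -1.34 to 2.43 in log2 ratio, and the 48 with at least 30 reads from -0.99 to 1.33. The shares over all genes are not matched to the members for reads.

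**Figure D4:**
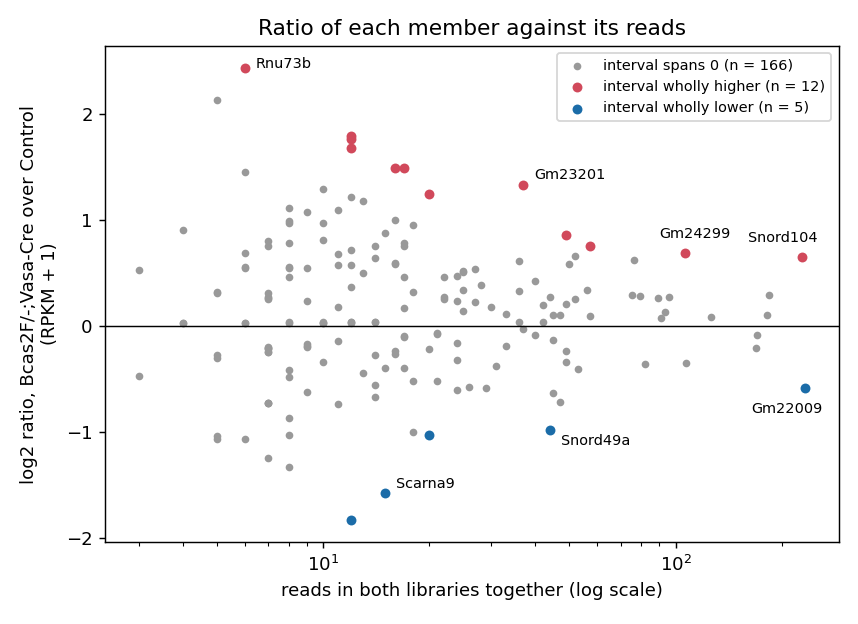
Log2 ratio of RPKM plus 1, Bcas2F/-;Vasa-Cre over Control, against the reads in both libraries together on a log scale, for the 183 members. The points spread from -1.83 to 2.43 at few reads and draw together to the right, and the 12 members with intervals wholly above 0 (red) and 5 wholly below (blue) are coloured.

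Set against counting error, 12 members (6.56%) had an interval of the RPKM ratio wholly above 0 and 5 (2.73%) wholly below, and 166 spanned 0. Scarna13 (0.365 RPKM) and Rnu73b (0) were under 1 RPKM in Control, and Gm23123 (0.359) in Bcas2F/-;Vasa-Cre. These passed the limit through the library in which they were high, so their intervals do not support a change. Among 752 other genes with 1 annotated transcript, whole reads and 3 to 233 reads, 6.78% were wholly above and 4.26% wholly below. The members' shares were thus near those of other genes of like read number, although that group had a median of 38 reads. The intervals are of the ratio without the added 1.

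Among the members with the most reads, Snord104 was higher in Bcas2F/-;Vasa-Cre, by 0.65 on the log2 scale (interval 0.27 to 1.06), and Gm24299 in Taf1d was higher by 0.69 (0.12 to 1.31), with 41 reads in Control and 65 in Bcas2F/-;Vasa-Cre. Gm22009 was lower, with a log2 ratio of -0.59 (-1.02 to -0.23), while its host Kpna4 had 28.2 and 31.1 RPKM. Snord49a, a box C/D snoRNA, had 20.9 RPKM in Control (30 reads) and 10.1 in Bcas2F/-;Vasa-Cre (14 reads), a log2 ratio of -0.99 (-2.09 to -0.10). Its host 2410006H16Rik was at 71.6 and 67.4 RPKM, and Snord49b and Snord65 from the same host had 3 and 3 reads and 2 and 2 reads. Gm23201, in the non-coding Zfas1, had 10 reads in Control and 27 in Bcas2F/-;Vasa-Cre (5.64 and 15.7 RPKM), a log2 ratio of 1.33 (0.38 to 2.69), with Zfas1 at 72.1 and 72.2 RPKM. Gm26205 had 17 and 32 reads and Gm22270 21 and 36, and their intervals began at 0.06 and 0.01.

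The largest ratios belonged to members with fewer reads still. Gm23123 had 11 reads in Control and 1 in Bcas2F/-;Vasa-Cre (log2 ratio -1.83), and it has 4 near-identical copies. Scarna9, which GENCODE lists as a snoRNA, had 12 and 3 reads (log2 ratio -1.58, interval -4.42 to -0.07), and Gm24143 had 7 and 1. Rnu73b had 0 reads in Control and 6 in Bcas2F/-;Vasa-Cre (interval from 0.28 upwards), and Gm22888 had 0 and 5. Gm22980, Snord100 and Snord88a each had 2 reads in Control and 10 in Bcas2F/-;Vasa-Cre. Gm25588 had 3 and 13 reads, Gm23245 had 5 and 15, and Gm24894 had 2 and 8. Of the remaining falls with at least 10 reads past 1.5-fold, Gm25604 had 13 and 5 reads, Gm22077 30 and 17 and Snord98 9 and 5. The intervals of Gm24143, Gm22888, Gm24894, Gm25604, Gm22077 and Snord98 spanned 0.

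**Figure D5:**
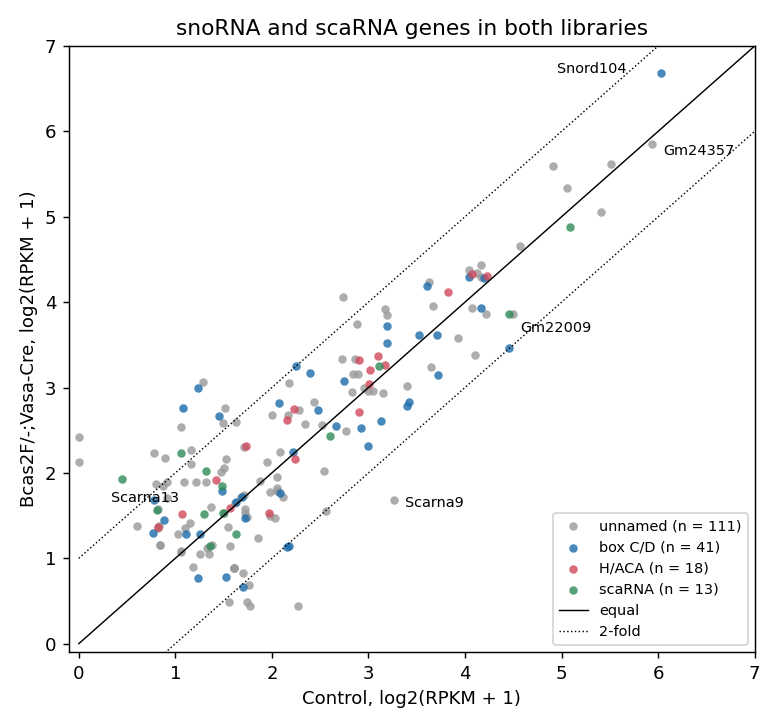
Log2 of RPKM plus 1 in Control (horizontal axis) and in Bcas2F/-;Vasa-Cre (vertical axis) for the 183 members, coloured by class from their symbols, with a solid line at equal levels and dotted lines at 2-fold. The points lie along the solid line and spread more at low levels, and Snord104 is the highest in both libraries.

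The H/ACA members by symbol had ratios in a narrow range, but they were few and had a median of 29 reads, against 15 over all members. Of the 18, 15 were higher and 3 lower in Bcas2F/-;Vasa-Cre, with a median log2 ratio of 0.26 and a range of -0.45 to 0.59. Snora28 in Eif5 had 45 and 46 reads (17.8 and 18.7 RPKM), Snora24 in Snhg8 41 and 48 (15.8 and 19.1 RPKM) and Snora31 in Tpt1 34 and 41 (13.1 and 16.3 RPKM). Summed, they had 295 and 337 reads, a log2 ratio of 0.24 (interval 0.01 to 0.47), and no single interval left out 0. The 69 members with the ACA, most of them unnamed, had a median of 0.04 and ranged from -1.83 to 1.49. Of these, 43 were higher and 26 lower, and their 941 and 1047 summed reads gave a log2 ratio of 0.20 (interval 0.07 to 0.33). The median of the Snora members was thus not that of the members with the ACA, while the summed ratios were close.

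The 41 box C/D members by symbol ranged more widely, from -1.04 to 1.76, with 24 higher, 17 lower and a median of 0.03. They were more in number and had a median of 17 reads, so the ranges of the classes are not matched. Their 504 and 547 reads gave a log2 ratio of 0.16 (interval -0.02 to 0.34), of which Snord104 held 90 and 138. The 4 members for U3, the snoRNA that acts in cutting the ribosomal RNA precursor, had 42 reads in Control and 24 in Bcas2F/-;Vasa-Cre together, a log2 ratio of -0.76 (-1.55 to -0.01). Rnu3a had 15 and 5 reads (3.52 and 1.21 RPKM, interval -3.36 to -0.01), and Rnu3b3, Rnu3b4 and Rnu3b1, near-identical genes within Tex14, had 14 and 10, 8 and 3, and 5 and 6 reads. Reads of the latter 3 cannot be assigned to 1 gene with certainty. Summed, these 3 had 27 and 19 reads, a log2 ratio of -0.46 whose interval spanned 0 (-1.39 to 0.44). Their host Tex14 was at 55.6 RPKM in Control and 42.6 in Bcas2F/-;Vasa-Cre. Of imprinted snoRNA clusters, all 17 Snord116 entries were at 0 in both libraries, and Snord64 (5 and 11 reads) and Snord107 (1 and 3 reads) were members.

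The 13 scaRNA members had 306 reads in Control and 269 in Bcas2F/-;Vasa-Cre, a log2 ratio of summed reads of -0.14 (interval -0.38 to 0.10), whereas the median of their ratios was 0.14. Gm22009 held 233 of these 575 reads. Scarna13, in the non-coding gene Snhg10, had 2 and 15 reads (0.365 and 2.82 RPKM), a log2 ratio of 1.49 (0.85 to 6.12). It passed the limit only through the Bcas2F/-;Vasa-Cre library. Scarna6 had 4 and 10 reads, Scarna3a 3 and 10, Scarna2 12 and 15 and Scarna17 12 and 13, and their intervals spanned 0. The telomerase RNA gene Terc, which carries an H/ACA domain but is not annotated as a snoRNA, had 2.14 and 1.83 RPKM.

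Levels of members and hosts were compared for the 155 members whose host had a value. In 153 of them the member was below its host, at a median of 4.10% of the host RPKM. The exceptions were Snord89, above Gm15832, and Gm25428, whose annotated host Gm20388 was at 0. Across these members the log2 levels of member and host had a Pearson r of 0.29 and a Spearman rho of 0.31, and their log2 ratios an r of 0.15 and a rho of 0.12. Members of 1 host share its value and all share the same 2 libraries, so these are descriptions. None of the 114 hosts passed 1.5-fold, against 1.69% lower and 1.57% higher over all genes, with log2 ratios between -0.53 and 0.37. The hosts had a median of 57.8 RPKM and were not matched in level to all genes. Gm20388, at 0 in both libraries, could not pass a fold.

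Ribosomal protein genes hosted 33 members in 20 genes. Of the hosts, 19 were lower in Bcas2F/-;Vasa-Cre, with a median log2 ratio of -0.15, whereas 23 of their members were higher and 10 lower, with a median of 0.21. Over all 183 members 115 were higher and 68 lower, and 64.1% of the other short RNA entries were higher. The direction of these members is thus not particular to ribosomal protein hosts. The reads of these members summed to 518 and 558, a log2 ratio of 0.15 (-0.02 to 0.33). Of the 8 of these hosts with more than 1 member, 5 held members on both sides of 0, and in the other 3 (Rpl5, Rps3a1 and Rpsa) every member was higher. Rps3a1 was itself the host that was higher, at a log2 ratio of 0.37. Its member Rnu73b, with 0 and 6 reads, passed the limit only through the Bcas2F/-;Vasa-Cre library. In Rps12, Gm23130 had 61 and 46 reads, Snora33 18 and 18 and Snord100 2 and 10. In Rpl4, Gm22571 had 23 and 26, Gm23136 28 and 21, Snord16a 16 and 20 and Gm22455 5 and 10.

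Genes for proteins that build and release snoRNAs were examined on 5 lists. None of the 27 genes passed 1.5-fold in either direction. Over all genes 1.69% were lower and 1.57% higher past that fold, a share at which a list of this size may hold none. In Bcas2F/-;Vasa-Cre 21 of the 27 were lower and 6 higher, with a median log2 ratio of -0.09. Over all genes 53.7% were higher and the median was 0.02. The difference from all genes was not tested. Of the box C/D core proteins, Fbl, the methyltransferase, had 199 and 170 RPKM, Nop56 182 and 158, Snu13 149 and 135 and Nop58 97.5 and 102. Of the H/ACA core proteins, Dkc1, the pseudouridine synthase, had 97.2 and 90.7 RPKM, Nhp2 120 and 114, Nop10 49.5 and 43.9 and Gar1 70.9 and 80.3. The 9 assembly factors ranged from -0.34 for Pih1d1 to 0.07 for Nufip1 on the log2 scale, and the 4 Cajal body genes from -0.32 for Wrap53 to 0.02 for Smn1. Of the 6 genes for intron release and trimming, Dbr1, which opens the excised intron lariat, had 33.2 and 34.0 RPKM and Exosc10, a nuclease of the nuclear exosome, 57.5 and 48.4.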

How the data were processed

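Total RNA from whole testes was made into 1 library per genotype, and the authors aligned paired-end reads with TopHat2 2.0.9 to mm10 and counted them per gene with HTSeq. The study describes the RNA sequenced as mRNA, but the way it was selected and the annotation release are not given in the sources used here. The authors deposited RPKM per Ensembl gene, with no counts. Here 37692 entries (95.0%) were matched to GENCODE M21.

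Library sizes and reads were recovered from the RPKM steps as whole multiples of 1 read per gene length, within 0.02 of a read. Reads are given for genes with 1 transcript, since the length the authors used is less certain for others. Whether a count is a read or a read pair is not given. Log2 ratios used a pseudocount of 1, and Clopper-Pearson intervals of 95% used the recovered reads. With 1 library per genotype no test was made. Near-identical copies were searched for with BLAST+ 2.17.0 among annotated transcripts, since no genome sequence was used here. Python 3.11.15, numpy 2.4.6, scipy 1.17.1 and pandas 2.3.3 were used, and the recovery was tested on simulated data.

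The genes named were Bcas2, the 10 members with the most reads, the 3 with the highest mean RPKM, all Scarna genes, up to 8 lower and 8 higher ones past 1.5-fold with at least 10 reads, the 3 largest of each over all members, the 3 on each side of the limit, and hosts and listed genes. Other members were named after their values were seen. The members and lists were chosen with earlier results of these data known. Alternatives were other pseudocounts, scalings, filters and sets of members.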

Additional observations from a re-analysis of the deposited data

How the results depend on the processing

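No paired analysis was possible because each genotype had 1 library. With a pseudocount of 0.1, falls past 2-fold numbered 16 and rises 28, and with 0.01 falls numbered 16 and rises 35, against 10 and 16. With no filter on mean RPKM, which left 337 entries, falls past 1.5-fold numbered 37 (11.0%) and rises 67 (19.9%). Among the 183 members they numbered 23 (12.6%) and 43 (23.5%), so the counts grew with the set and the shares did not. At a mean RPKM of at least 5, which left 69 members, 1 fall and 1 rise passed 2-fold, 8 falls and 12 rises passed 1.5-fold, and the median of the scaRNA members turned to -0.21, with fewer of them left. With at least 10 reads, 4 falls and 11 rises passed 2-fold and 12 falls and 31 rises passed 1.5-fold. Among members over no exon of another gene, 5 falls and 10 rises passed 2-fold and 28 rises passed 1.5-fold. The last 3 filters left 69, 126 and 126 members.

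The median log2 ratio of all members lay between 0.09 and 0.18 under the alternatives tried, that of the box C/D members between 0.02 and 0.10, that of the H/ACA members between 0.19 and 0.42, and the log2 ratio of summed reads between 0.09 and 0.18. Leaving out the members in Taf1d, Snord104 or Gm22009 was chosen after seeing the data. The 36 members named by the rule that lay inside the limit kept their sign and stayed within their counting intervals under other pseudocounts and scalings, and Bcas2 kept its sign. For the pseudocounts this could hardly have come out otherwise. A value added to both libraries cannot turn a sign, and a smaller one moves the ratio towards that of the reads, which lies inside the interval. It is therefore no support for these ratios. Other named genes were not recomputed. The median of 15 reads limits what can be said of a single member, and 166 of the 183 intervals spanned 0.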
